A study of Danio rerio with 8 samples.

Results

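The 25 genes described here stood higher in primordial germ cells (PGCs) sorted from zebrafish embryos than in somatic cells of the same stage. PGCs are the cells that later give rise to eggs and sperm. The genes stood higher at both stages covered here. They were chosen on CPM, a gene's expected count as a share of its library's total. Both libraries of each PGC group had to reach 1 CPM, and at each stage the lower PGC library had to be at least 4 times the higher soma library. Of the 34381 rows of the count table, 12196 reached 1 CPM in every PGC library. The ratio was met by 77 of these (0.631%) at 24 hpf (hours post fertilisation), by 704 (5.77%) at 7 hpf and by 29 (0.238%) at both. The well-known germ cell genes ddx4, tdrd7a, nanos3 and dazl were then set aside, which left 25, while piwil1 and piwil2, also named for removal, had not met the ratio. All PGC-against-soma values of these genes are therefore a description of the choice, and a test of that contrast is no support.

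The libraries described here form 4 groups of 2 each: PGCs at 24 hpf, PGCs at 7 hpf, soma at 24 hpf and soma at 7 hpf. The study also sampled other stages, which are not among these libraries. By the study's methods, PGCs and soma alike came from zebrafish embryos of the kop-EGFP-F-nos3'UTR reporter line. In that line, which the study's methods name with an added cry-DsRed part, a farnesylated green fluorescent protein is driven by the kop promoter and carries the nanos3 3' untranslated region. PGCs were the cells that passed the sort for it and soma was somatic cells of age-matched embryos with the same transgene. The labels give no mutation or agent for any group. Library totals ran between 6997561 (PGC 7 hpf replicate 2) and 21073240 (PGC 24 hpf replicate 1) expected counts. A count of 3, the floor used here, equalled between 0.142 and 0.429 CPM in a single library.

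In zebrafish, germ cells are set aside early by germ plasm, a maternal deposit of RNA and protein that the first PGCs inherit. Its RNAs are cleared from soma and protected in PGCs, in part by RNA-binding proteins that act on 3' untranslated regions. Nuage, the granular material around germ cell nuclei, holds Tudor-domain and Piwi proteins, which make and use small RNAs (piRNAs) that silence transposons.

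The labels were checked against marker lists. The 7 germ cell markers summed to 392 and 565 CPM in PGCs at 24 hpf, against 6.27 and 8.55 CPM in soma at 24 hpf, and to 5889 and 8473 CPM in PGCs at 7 hpf, against 44.7 and 126 CPM in soma at 7 hpf. These 7 include dnd1 and the genes set aside, which the ratio had chosen or removed, so this is a check of the labels only. The 14 measured pigment, muscle, neural, blood and vessel markers summed to 482 and 507 CPM in PGCs at 24 hpf, against 521 and 570 CPM in soma at 24 hpf, with none of the 14 at 0 in any of these 4 libraries. The elavl3 gene, a neuronal marker, had 153 and 187 CPM in PGCs at 24 hpf, against 173 and 179 CPM in soma at 24 hpf. At 7 hpf the same 14 markers summed to 10.7 and 12.03 CPM in PGCs, against 7.83 and 27.3 CPM in soma, with between 6 and 9 of them at 0. Taken by list, the blood and vessel markers were lower in PGCs at 24 hpf, with 28.1 and 35.2 CPM, against 58.1 and 68.7 CPM in soma. So were the neural markers, by less, with 179 and 212 CPM in PGCs, against 219 and 223 CPM in soma. These are sums only: 0 markers of either list passed as lower in PGCs at 24 hpf in edgeR, as did 0 of all 19885 tested genes. The pigment and muscle lists overlapped between PGCs and soma. The neuronal gene neurod1 had 5.75 and 8.83 CPM in PGCs, against 21.04 and 22.0 CPM in soma, while the other neural markers overlapped between PGCs and soma. Germ cell markers thus stood above soma at both stages. The 14 summed markers were about as high in PGCs as in soma at 24 hpf, though not each list or gene. The epidermal markers, which are not in that sum, were more abundant and lower in PGCs at 24 hpf. They had 3427 and 6570 CPM in PGCs, against 6924 and 8622 CPM in soma, and 0 of them passed as lower at 24 hpf. Of the 5 epidermal markers, krt4, krt5, krt8 and epcam were higher in both PGC libraries at 7 hpf than in soma without passing the test. The tp63 gene, a regulator of epidermis, passed as lower, with 5.67 and 16.3 CPM in PGCs, against 29.9995 and 50.7 CPM in soma (log2 fold change -2.33, adjusted p = 0.026 in edgeR). The study's own estimate put the sorted PGCs as nearly pure. In bulk samples such as these, fewer germ cells in a library and less RNA per germ cell cannot be told apart.

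The dnd1 and ca15b genes had the highest PGC levels of the members at both stages. The dnd1 gene encodes Dead end, an RNA-binding protein that shields germ cell mRNAs from microRNAs and that zebrafish PGCs need to survive and migrate. It had 34.3 and 48.3 CPM in PGCs at 24 hpf, against 0.128 and 1.04 CPM in soma at 24 hpf. At 7 hpf it had 802 and 1031 CPM in PGCs, against 0.443 and 1.06 CPM in soma. The pooled PGC level was 65.7 times that of soma at 24 hpf (95% counting interval 43.3 to 105) and 1261 times at 7 hpf (788 to 2166). Such intervals rest on pooled counts and leave out the spread between libraries. The soma level of dnd1 was about the same at both stages. The ca15b gene encodes a carbonic anhydrase. It had 19.7 and 45.3 CPM in PGCs at 24 hpf, against 0.064 and 0.155 CPM in soma, and 310 and 559 CPM in PGCs at 7 hpf, against 0.0959 and 0.296 CPM in soma. It had the lowest soma level relative to PGCs of the members with soma counts, 0.351% at 24 hpf (0.0956% to 0.901%) and 0.0456% at 7 hpf (0.0148% to 0.106%).

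The gra gene encodes Granulito, a protein of zebrafish germ granules. It had 2.56 and 4.06 CPM in PGCs at 24 hpf, against 0 and 0.259 CPM in soma, and 58.6 and 139 CPM in PGCs at 7 hpf, against 0.959 and 2.22 CPM in soma. Its PGC libraries did not overlap those of the other stage. The rbm46 gene encodes an RNA-binding protein that mouse germ cells need for meiosis. It had 3.14 and 3.94 CPM in PGCs at 24 hpf, with 0 counts in both soma libraries, and 13.0 and 13.6 CPM in PGCs at 7 hpf, against 0 and 1.33 CPM in soma. All 18 of its soma counts at 7 hpf came from replicate 1.

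Of the 18 measured genes of the piRNA and nuage list, 4 were members. The tdrd1 gene encodes a Tudor-domain scaffold for Piwi proteins. It had 1.85 and 4.49 CPM in PGCs at 24 hpf, against 0.155 and 0.384 CPM in soma, and 39.4 and 54.7 CPM in PGCs at 7 hpf, against 2.22 and 3.17 CPM in soma. The asz1 gene encodes a protein that in mouse sits on mitochondria and takes part in piRNA production. It had 1.35 and 2.56 CPM in PGCs at 24 hpf, against 0 and 0.256 CPM in soma, and 12.03 and 41.4 CPM in PGCs at 7 hpf, against 0.0959 and 0.369 CPM in soma. The pld6 gene encodes the mitochondrial nuclease that in mouse and fly makes piRNA ends. It had 1.80 and 2.03 CPM in PGCs at 24 hpf, against 0 and 0.104 CPM in soma, and 1.57 and 3.43 CPM in PGCs at 7 hpf, against 0.0739 and 0.0959 CPM in soma. Unlike tdrd1 and asz1, its PGC libraries overlapped between the stages. The adad1 gene encodes an adenosine deaminase domain protein that mouse spermatids require. It had 3.42 and 5.65 CPM in PGCs at 24 hpf, with 0 counts in both soma libraries, and 9.86 and 12.8 CPM in PGCs at 7 hpf, against 0.0959 and 0.591 CPM in soma.

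Several members are not known as germ cell genes. The mixl1 gene encodes a homeobox factor of mesoderm and endoderm in the gastrula. It had 2.51 and 4.94 CPM in PGCs at 24 hpf, with 0 counts in both soma libraries, which put the pooled PGC level at least 43.5-fold higher, taking the floor over the group. At 7 hpf it had 112 and 192 CPM in PGCs, against 3.45 and 19.0 CPM in soma, a pooled ratio of 13.1 (11.6 to 14.8). The interval leaves out the spread between libraries: for mixl1 the lower PGC library was 5.88 times the higher soma library. The other mesoderm and endoderm markers on its list were present in both sorted fractions at 7 hpf, with tbxta at 287 and 381 CPM in PGCs, against 246 and 462 CPM in soma, and gata5 at 21.01 and 43.0 CPM in PGCs, against 42.3 and 48.7 CPM in soma. On that list mixl1 was the gene that met the 4-fold ratio. The prkcha gene encodes a protein kinase C of the eta type. It had 1.06 and 1.42 CPM in PGCs at 24 hpf, with 0 counts in both soma libraries, and 11.6 and 20.6 CPM in PGCs at 7 hpf, against 0.288 and 1.18 CPM in soma. The ccdc106b gene, a coiled-coil protein gene, had 4.60 and 6.13 CPM in PGCs at 24 hpf, against 0 and 0.0518 CPM in soma, and 25.6 and 36.6 CPM in PGCs at 7 hpf, against 0.959 and 2.66 CPM in soma. Its 24 hpf soma value was a single count, with a ratio of 187 (33.3 to 7430).

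Another set of members was not lower in PGCs at 24 hpf than at 7 hpf beyond the spread of the libraries. The rnf213b gene encodes a large ubiquitin ligase with an ATPase core and stands on the interferon-responsive list. It had 6.57 and 7.21 CPM in PGCs at 24 hpf, against 0.155 and 0.512 CPM in soma, and 2.35 and 2.57 CPM in PGCs at 7 hpf, against 0.0959 and 0.369 CPM in soma. With cracdla, it was 1 of 2 members whose PGC libraries at 24 hpf both stood above those at 7 hpf. The interferon-responsive list as a whole did not share this rise. On it irf10 had 2.80 and 3.04 CPM in PGCs at 24 hpf, against 0.489 and 0.715 CPM at 7 hpf. The log2 fold changes of isg15, xaf1, parp12a and b2m in PGCs were negative. Of the 6 genes on the list, 0 passed as changed between the stages in PGCs, and their median log2 fold change was -0.45. The cracdla gene is related to a regulator of actin capping. It had 1.98 and 2.37 CPM in PGCs at 24 hpf, against 0 and 0.207 CPM in soma, and 1.00 and 1.86 CPM in PGCs at 7 hpf, with 0 counts in both soma libraries. The psme1 gene encodes the PA28 alpha subunit of a proteasome activator. It had 2.66 and 3.04 CPM in PGCs at 24 hpf, against 0.104 and 0.192 CPM in soma, and 2.15 and 3.57 CPM in PGCs at 7 hpf, against 0.288 and 0.369 CPM in soma. The zfpm2 gene encodes a cofactor of GATA factors, rab40b a Rab-family GTPase, and lrfn5b an adhesion protein of synapses. In PGCs at 24 hpf zfpm2 had 2.42 and 3.24 CPM, rab40b 3.65 and 5.99 CPM, and lrfn5b 3.18 and 4.40 CPM. In PGCs at 7 hpf zfpm2 had 3.03 and 5.002 CPM, rab40b 4.01 and 8.43 CPM, and lrfn5b 3.72 and 3.86 CPM. For all 3 genes the PGC libraries of the 2 stages overlapped. In soma these 3 genes lay between 0.192 and 0.777 CPM at 24 hpf and between 0 and 0.739 CPM at 7 hpf.

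The low end of the set was thinly covered. The chmp2b gene (ENSDARG00000068683), which encodes a membrane-remodelling protein of the ESCRT-III complex, was the only member with 0 counts in all 4 soma libraries. It had 1.16 and 1.33 CPM in PGCs at 24 hpf and 2.43 and 2.84 CPM in PGCs at 7 hpf, so its PGC level was at least 14.5-fold higher than soma at 24 hpf and at least 21.3-fold higher at 7 hpf. The si:ch211-286b5.2 gene had 1.09 and 1.16 CPM in PGCs at 24 hpf, with no soma counts, and 8.81 and 19.1 CPM in PGCs at 7 hpf, against 0 and 0.192 CPM in soma. The remaining members were zbtb47a, si:ch211-137a8.2, si:ch211-176l24.4, si:dkey-9k7.3 and 2 genes without a name in the tables used, ENSDARG00000086752 and ENSDARG00000099077. The zbtb47a and si:ch211-176l24.4 genes were among those just above 1 CPM in PGCs, with 1.42 and 1.497 CPM at 24 hpf for zbtb47a and 1.00 and 1.86 CPM at 7 hpf for si:ch211-176l24.4. The 2 unnamed genes were also the 2 of the 25 members (8%) with fractional counts, against 12.1% of all genes tested. Their reads may be shared with other genes, and their levels are uncertain. ENSDARG00000086752 had 1.52 and 1.72 CPM in PGCs at 24 hpf, against 0 and 0.128 CPM in soma, and 4.72 and 12.6 CPM in PGCs at 7 hpf, against 1.11 and 1.15 CPM in soma. The si:ch211-137a8.2 gene, for which no role is given here, had soma libraries close to each other at both stages. It had 3.13 and 5.02 CPM in PGCs at 24 hpf, against 0.64 and 0.777 CPM in soma, and 29.0 and 57.7 CPM in PGCs at 7 hpf, against 1.77 and 1.82 CPM in soma.

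**Figure D1:**
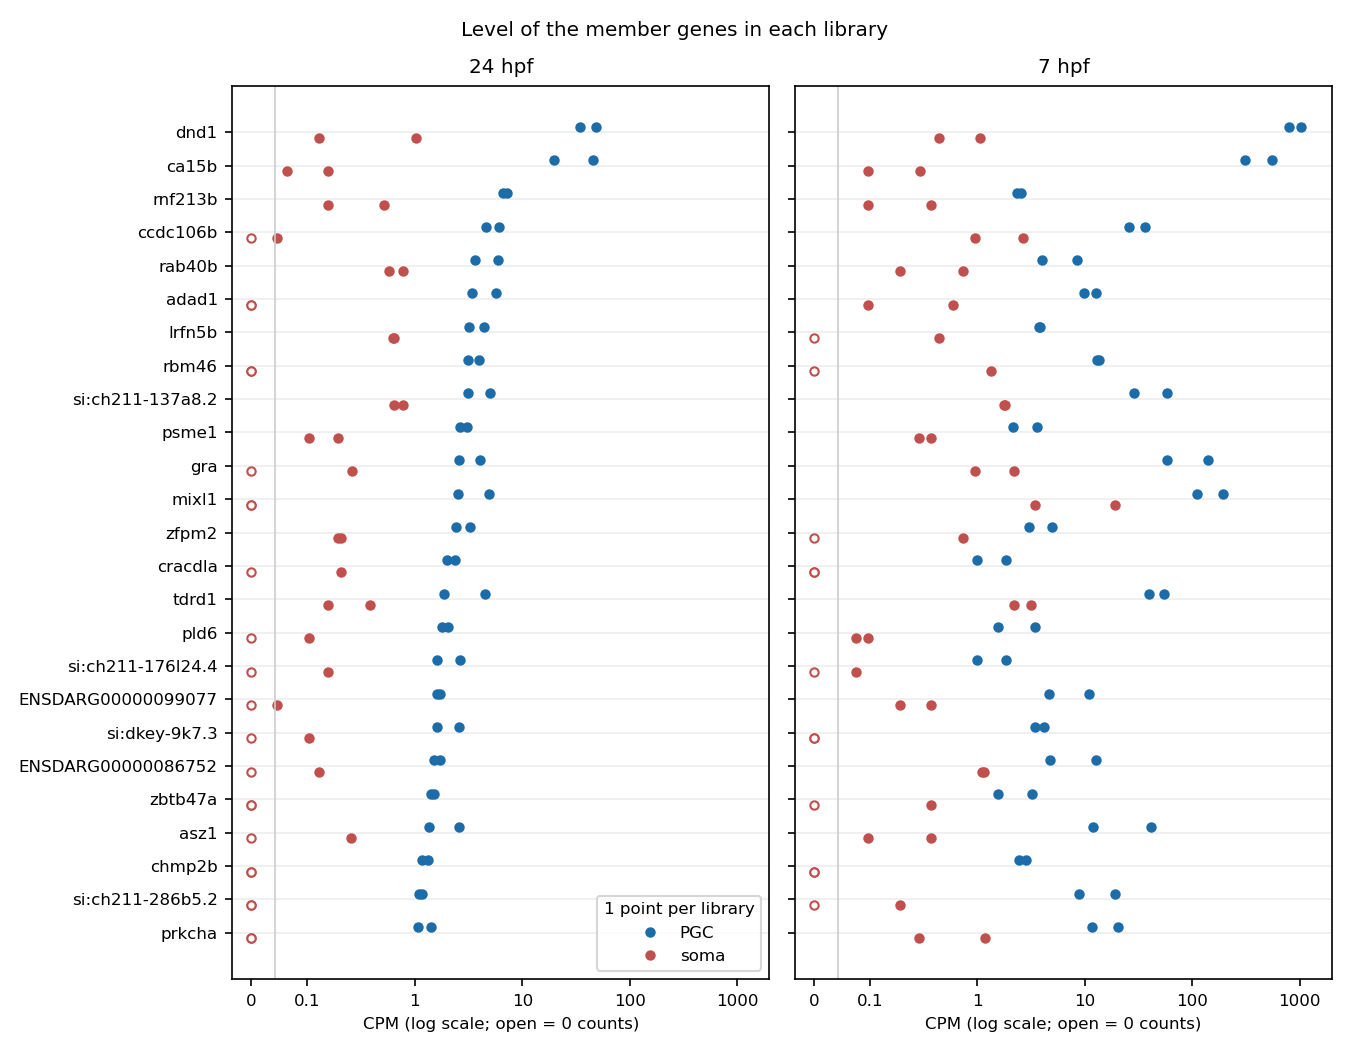
Level of each of the 25 members in each library, in CPM on a log axis, at 24 hpf (left) and 7 hpf (right), with PGC points above soma points and open points at 0 counts. PGC and soma libraries do not overlap, as the choice of genes required, and dnd1 and ca15b stand apart at 7 hpf, with 310 to 1031 CPM in PGCs.

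Just inside the 4-fold ratio were si:ch211-137a8.2 (4.03 at 24 hpf), ENSDARG00000086752 (4.10 at 7 hpf), zfpm2 (4.10 at 7 hpf) and zbtb47a (4.25 at 7 hpf). Just outside were si:dkey-40c23.2 (3.98 at 7 hpf), mfsd6l (3.57 at 24 hpf), si:ch211-188c16.1 (3.45 at 7 hpf) and ENSDARG00000104419 (3.40 at 24 hpf). The piwil1 gene had ratios of 2.51 at 24 hpf and 1.09 at 7 hpf, and piwil2 had 7.28 at 24 hpf and 1.78 at 7 hpf. Both encode the Piwi proteins that tdrd1 scaffolds, and at 7 hpf piwil1 still had 9.21 and 34.1 CPM in soma.

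Levels of different genes were compared per length, as TPM (length-scaled transcript abundance), and only within a stage. A single short RNA, given an effective length of 1.3 to 3.64 bases, took 23.3% and 33.5% of the TPM of PGCs at 7 hpf and 9.46% and 11.6% at 24 hpf, which lowers every other TPM value, more so at 7 hpf. At 24 hpf ca15b averaged 13.6 TPM, dnd1 9.85 TPM and ccdc106b 3.92 TPM in PGCs, and the next was psme1 at 1.74 TPM. At 7 hpf the order was dnd1 at 209 TPM, ca15b at 161 TPM, gra at 41.3 TPM, mixl1 at 28.9 TPM and ccdc106b at 22.3 TPM, and the next was asz1 at 8.15 TPM. The dnd1 and ca15b libraries overlapped at both stages (7.58 and 12.1 TPM against 7.94 and 19.2 TPM at 24 hpf), so their order was within the spread. By mean TPM among all rows, dnd1 ranked 2857 in PGCs at 24 hpf and 275 at 7 hpf.

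The soma level of the members was not the same fraction of the PGC level. Among members with soma counts, it ran between 0.351% and 17.6% of PGC at 24 hpf (median 4.45%) and between 0.0456% and 12.2% at 7 hpf (median 5.41%). A total of 7 members had 0 soma counts at 24 hpf and 3 at 7 hpf. The soma count over both libraries was 3 or fewer for 13 members at 24 hpf and for 6 at 7 hpf, where no finer ratio was detectable at this depth. Of the 16 members with soma counts at both stages, the PGC-to-soma ratio was larger at 24 hpf for 7 and at 7 hpf for 9. The si:ch211-137a8.2 gene had the smallest ratio at 24 hpf, 5.69 (3.72 to 9.03), against 22.7 (16.6 to 31.6) at 7 hpf. The members differed between the 2 soma libraries at 7 hpf: 16 of 25 (64%) were higher in replicate 1 and 6 in replicate 2. Of all tested genes 49.4% were higher in replicate 1. The members summed to 36.7 CPM in replicate 1 and 14.2 CPM in replicate 2. The mixl1 gene had 257 counts in replicate 1 and 36 in replicate 2, whereas dnd1 had 6 in replicate 1 and 11 in replicate 2. In soma at 24 hpf 6 members (24%) were higher in replicate 1 and 12 in replicate 2, against 66.3% of all tested genes higher in replicate 1. There dnd1 had 2 counts in replicate 1 and 20 in replicate 2.

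**Figure D2:**
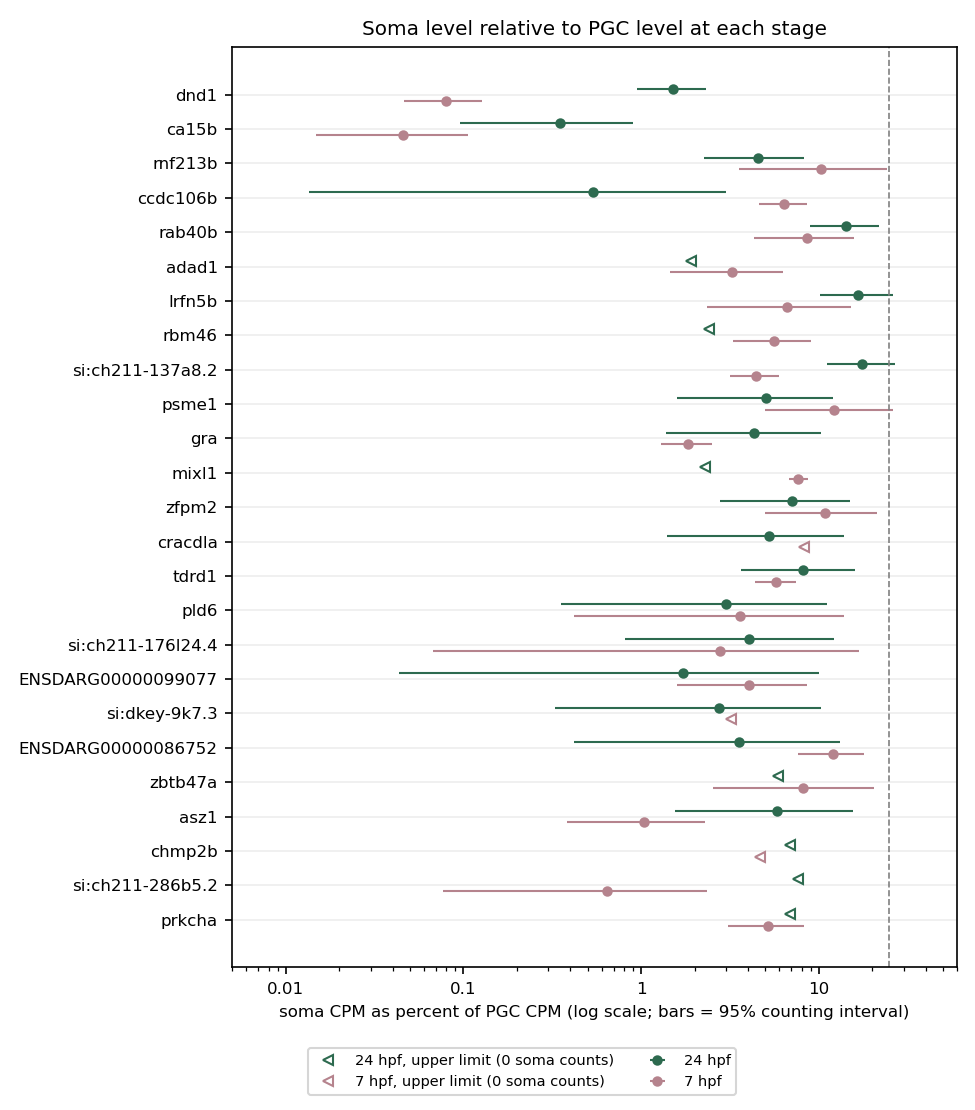
Soma CPM as a percentage of PGC CPM for each member, pooled over the libraries of a group, on a log axis, with 24 hpf above 7 hpf, bars for the 95% counting interval, open triangles for the upper limit at 0 soma counts, and a dashed line at the level of the 4-fold ratio. The points spread from 0.0456% (ca15b at 7 hpf) to 17.6% (si:ch211-137a8.2 at 24 hpf), and many intervals at 24 hpf are wide because soma held few counts.

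The change between the stages was not compared in the choice. The minimum of 1 CPM at both stages still kept out genes near 0 in PGCs at either stage. The change was tested with edgeR's quasi-likelihood test over all 19885 genes that passed a count filter, with Benjamini-Hochberg adjustment. These genes include ones under that minimum, so shares over all tested genes are not a matched background for the members. All 25 members passed the filter, through their PGC libraries. A gene passed the test with an adjusted p under 0.05 and a log2 fold change of at least 1.5 in size. In PGCs, 8 of 25 members passed as lower at 24 hpf than at 7 hpf, 0 passed as higher and 17 did not pass. Over all tested genes 6.94% passed as lower and 19.5% as higher. The median log2 fold change of the members was -1.22, against 0.36 over all tested genes. On a scale set by 4 germ cell genes instead, 1 member passed as lower and 13 as higher, against 0.465% and 84.6% of all genes tested on it. By CPM, 17 members had PGC libraries wholly lower at 24 hpf (42% of all tested genes), 2 wholly higher (33.1%) and 6 overlapping. The log2 fold changes are on the TMM scale (edgeR's library scaling by a trimmed mean of ratios), which raises the 24 hpf PGC libraries by 0.69 on the log2 scale relative to CPM.

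The 8 were mixl1, gra, dnd1, prkcha, tdrd1, ca15b, asz1 and si:ch211-137a8.2. The log2 fold change was -4.69 ± 0.82 (approximate SE) for mixl1 and -4.18 ± 0.77 for gra, with adjusted p-values of 0.0042 and 0.0040 in edgeR. For dnd1 it was -3.79 ± 0.59, with an adjusted p of 0.0019, and for tdrd1 -3.16 ± 0.60, with an adjusted p of 0.0046. For ca15b it was -3.09 ± 0.47 (adjusted p = 0.0017) and for asz1 -3.08 ± 0.97 (adjusted p = 0.037). For prkcha it was -3.00 ± 0.90 (adjusted p = 0.035) and for si:ch211-137a8.2 -2.69 ± 0.55 (adjusted p = 0.0064). In each of the 8 both PGC libraries at 24 hpf were below both at 7 hpf. Near the threshold, si:ch211-286b5.2 had -2.92 ± 1.02 (adjusted p = 0.059), ccdc106b -1.82 ± 0.65 (adjusted p = 0.057) and rnf213b 2.17 ± 0.87 (adjusted p = 0.083). The genes set aside moved in the same range, with log2 fold changes of -3.72 ± 0.63 for tdrd7a, -2.86 ± 0.38 for nanos3 and -2.79 ± 0.45 for ddx4, while dazl, at -1.53 ± 0.72 (adjusted p = 0.13), did not pass. The count was 5 without PGC 24 hpf replicate 1, when asz1, prkcha and si:ch211-137a8.2 no longer passed. With any 1 of the 4 PGC libraries left out prkcha did not pass (adjusted p between 0.051 and 0.18), and asz1 did not pass without PGC 7 hpf replicate 2 or either PGC 24 hpf library (adjusted p up to 0.21).

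The sign of these changes depends on what the libraries are scaled to, since a scale shifts all genes alike. The summed germ cell markers and the summed pigment, muscle, neural, blood and vessel markers moved in opposite directions between the PGC libraries of the 2 stages, as given above. The gastrula soma markers, which include mixl1, fell in PGCs, from 435 and 698 CPM at 7 hpf to 32.5 and 41.2 CPM at 24 hpf. Among the epidermal markers, tp63 passed as higher at 24 hpf in PGCs and epcam as lower. The part of these shifts in the change of the members was not tested. As a description, chosen after the data had been seen, the 4 PGC libraries were scaled to the summed counts of ddx4, tdrd7a, nanos3 and dazl. This scale takes their RNA per germ cell as constant, which these data cannot show, so it separates no part of the change. The 4 genes had themselves met the ratio and fell unequally in PGCs. By pooled CPM tdrd7a fell the most, 20.1-fold, and dazl the least, 4.92-fold. These 4 genes summed to 342 and 501 CPM in PGCs at 24 hpf and to 5002 and 7374 CPM at 7 hpf. On that scale 13 members passed as higher at 24 hpf, 1 as lower and 11 did not pass, the median of the members was 1.92 and that of all 18700 genes tested was 3.49. Of those genes 84.6% passed as higher and 0.465% as lower. In the same 4 libraries on the TMM scale, 10 members passed as lower and 1 as higher. Of all 18700 genes tested there, 1569 passed as lower and 4389 as higher. The members' median lay below that of all genes by about the same distance on both scales, at -1.58 in the 8 libraries on the TMM scale, -1.55 in the 4 PGC libraries on the TMM scale and -1.57 on the scale of the 4 genes. On these scales 20, 18 and 18 of the 25 members were under the median of all genes. Because a scale shifts all genes nearly alike, the distance and these counts could hardly differ between scales. Their likeness is therefore no separate support for a fall of the members.

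Relative to the 4 germ cell genes, mixl1 was the member that still passed as lower. It had 7.34 and 9.86 per 1000 CPM of the 4 genes in PGCs at 24 hpf, against 15.2 and 38.5 at 7 hpf, a log2 fold change of -1.64 ± 0.59 (adjusted p = 0.022 in edgeR). The dnd1 gene had 96.5 and 100 per 1000 at 24 hpf, against 140 and 160 at 7 hpf, without overlap but with an adjusted p of 0.19. The log2 fold changes of ca15b (-0.05), gra (-0.86), tdrd1 (0.13), asz1 (0.18), prkcha (0.22) and si:ch211-137a8.2 (0.61) did not pass either. At the other end, rnf213b had 14.4 and 19.2 per 1000 at 24 hpf, against 0.349 and 0.469 at 7 hpf, a log2 fold change of 5.34 ± 0.75 (adjusted p = 8.9e-05). The si:ch211-176l24.4 gene (4.41 ± 1.11), cracdla (4.35 ± 1.08), psme1 (3.94 ± 0.92), lrfn5b (3.91 ± 0.85), rab40b (3.66 ± 0.80), pld6 (3.60 ± 1.03) and zfpm2 (3.46 ± 0.90) also passed as higher. So did zbtb47a, si:dkey-9k7.3, chmp2b, adad1 and rbm46, with log2 fold changes between 1.92 and 3.06. In this count the 13 members were in the same direction as most genes tested.

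**Figure D3:**
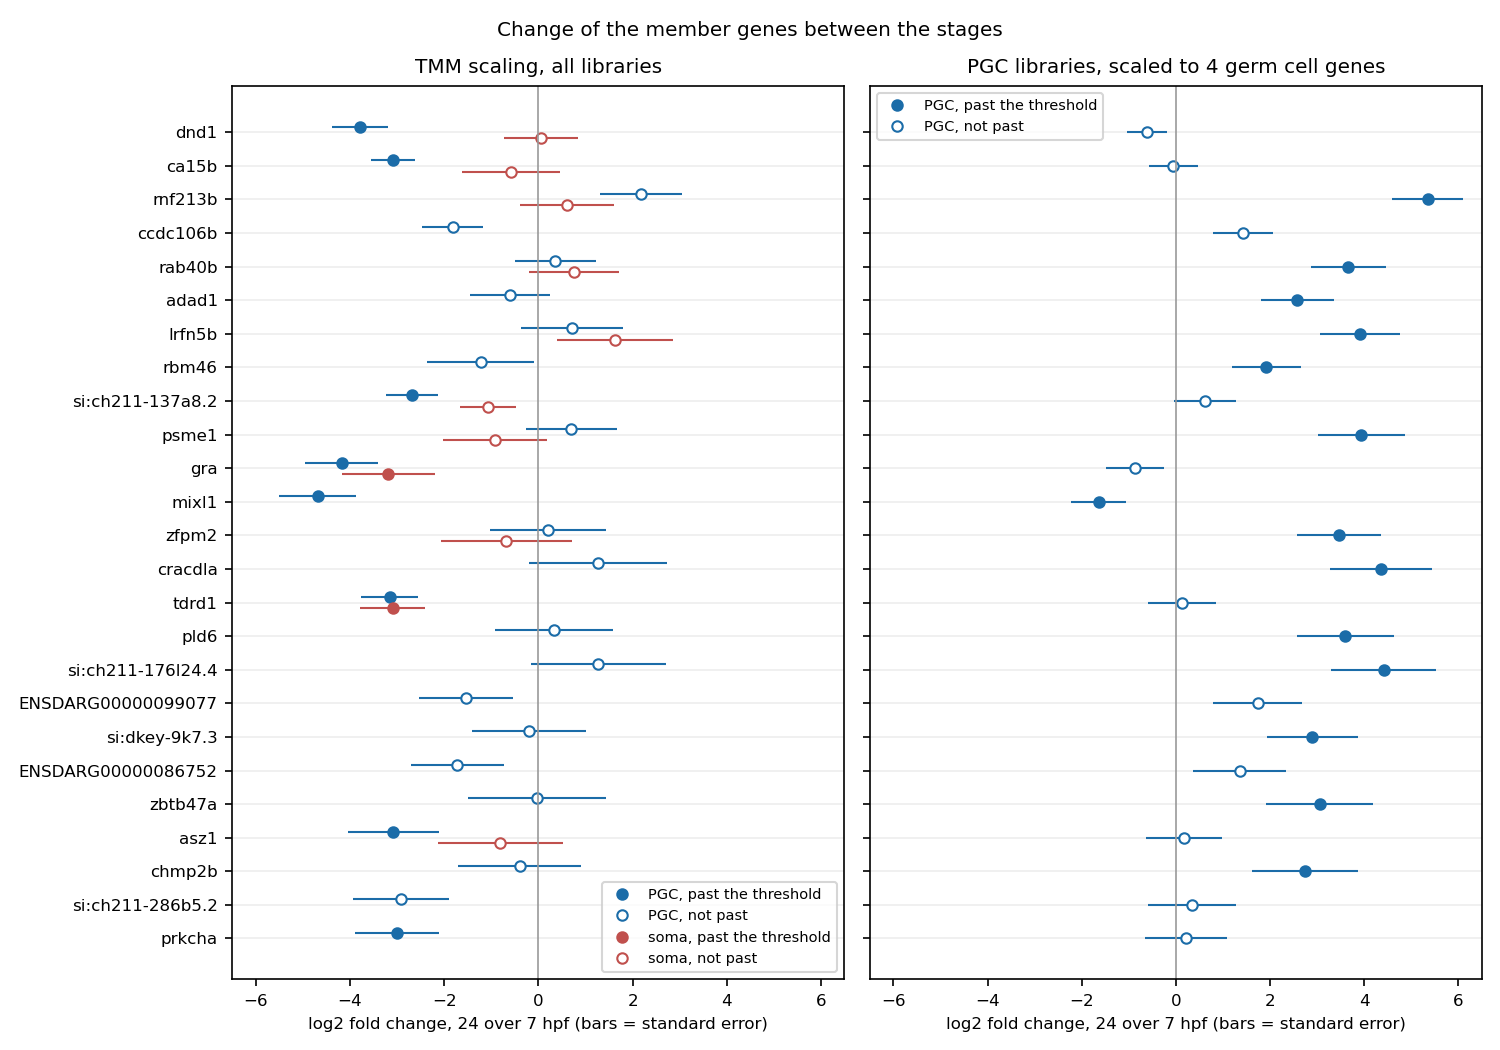
Left, log2 fold change of 24 over 7 hpf for each member on the TMM scale, PGC above soma, with the approximate standard error. Soma is drawn for the 11 members with more than 3 soma counts at each stage. Right, the same for the PGC libraries scaled to ddx4, tdrd7a, nanos3 and dazl. Filled points passed the threshold. On the left 8 PGC points passed, all negative, whereas on the right 13 passed as positive and mixl1 alone as negative. Of all genes tested in PGCs, 6.94% passed as negative and 19.5% as positive on the left scale. On the right scale 0.465% passed as negative and 84.6% as positive.

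In soma, 8 members passed as lower at 24 hpf than at 7 hpf and 0 as higher, against 9.89% and 23.2% of all tested genes. The median log2 fold change of the members was -0.93 (-0.81 with those at 0 counts at 24 hpf set to the floor), against 0.46 over all tested genes. By CPM, 10 members had soma libraries wholly lower at 24 hpf (32.1% of all tested genes), 1 wholly higher (40.3%) and 14 overlapping. The rule bears on this count: at each stage it held soma under a ceiling of the lower PGC level divided by 4, and for 6 members (tdrd1, prkcha, gra, mixl1, si:ch211-137a8.2 and ENSDARG00000086752) the ceiling at 24 hpf lay under both soma libraries at 7 hpf. Their soma level at 24 hpf was therefore lower by choice, and 5 of the 8 are among them, so the count is a description and not a result about soma. Of the 8, tdrd1, gra, mixl1 and prkcha also passed in PGCs, and the others were ccdc106b, adad1, rbm46 and ENSDARG00000086752. Members with 0 soma counts at 24 hpf allow only bounds by CPM: mixl1 was at least 142-fold lower at 24 hpf, prkcha at least 9.23-fold, rbm46 at least 8.75-fold and adad1 at least 4.37-fold. In contrast, dnd1 (0.05 ± 0.79) and ca15b (-0.58 ± 1.04) did not pass in soma, where dnd1 held 22 counts at 24 hpf, against 17 at 7 hpf, and ca15b 4 counts at 24 hpf, against 5 at 7 hpf. Whether the change differed between PGCs and soma was not tested. With soma libraries alone only 8 members passed the count filter and 2 of them (mixl1, ccdc106b) passed the test as lower. Of all 17590 genes tested in those libraries, 1688 passed as lower and 4206 as higher. The count was 4 without soma 7 hpf replicate 1 (tdrd1, ccdc106b and mixl1 lower, lrfn5b higher), 3 without soma 24 hpf replicate 2, and 5 without soma 24 hpf replicate 1 or without either PGC 24 hpf library.

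Of the 25 members, 8 stood on a list of germline genes and 17 on none. Over all tested genes 6.94% passed as lower at 24 hpf in PGCs and 9.89% in soma. Of 18 genes of the piRNA and nuage list, 8 passed as lower at 24 hpf in PGCs and 11 in soma, and 0 as higher in either. Of 13 genes of the germ plasm and RNA-binding list, 10 passed as lower in PGCs and 6 in soma. Of 12 genes of oocyte and maternal translation, which hold no member, 9 passed as lower in PGCs and 10 in soma. Of 9 tested genes of meiosis and gametogenesis, 4 passed as lower in PGCs and 3 in soma. Over the 46 listed genes 26 passed in PGCs, and 14 without PGC 24 hpf replicate 1 or without PGC 24 hpf replicate 2. Leaving out the members and the genes set aside, 32 listed genes were tested. Of these 18 passed as lower in PGCs at 24 hpf, with a median log2 fold change of -2.11, and 18 in soma, with a median of -3.15. Scaled to the 4 germ cell genes, 31 of the 32 could be tested in PGCs, and 12 passed as higher and 2, mcm6l and rgs14a, as lower. Of all genes tested on that scale, 84.6% passed as higher and 0.465% as lower. The rgs14a gene, whose RNA is a germ plasm component, had 0.58 and 0.902 CPM in PGCs at 24 hpf, against 127 and 303 CPM at 7 hpf.

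The same 32 genes were set against soma as a description only, since the members and the genes set aside had been taken out on this ratio. All 5 listed genes that passed at 24 hpf (ca15b, ddx4, dnd1, nanos3 and tdrd7a) were among those taken out. At 7 hpf, 4 passed as higher in PGCs (caprin2, golga3, rgs14a and sycp1) and 0 as lower, against 3.61% and 1.83% of all tested genes. At 24 hpf, 0 passed as higher in edgeR, where 0.0302% of all tested genes did. Of the 32, 21 were higher at an unadjusted p under 0.05 and DESeq2 called 12. For these looser counts no share over all tested genes was taken, so they have no background. The buc gene, the Bucky ball organiser of germ plasm, had 0.38 and 1.06 CPM in PGCs at 24 hpf, with 0 counts in soma, and 29.0 and 29.1 CPM in PGCs at 7 hpf, against 3.55 and 6.87 CPM in soma. It was short of the members' rule because 1 PGC library at 24 hpf was under 1 CPM.

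Effective length, the length over which a gene's reads could start, averaged over its isoforms, gave a second readout that the rule had not used. Of the 25 members, 19 had at least 20 counts in every PGC library and 12 of these had a length that varied by over 1 base once each library's median shift was taken off. In limma, 0 of the 12 passed (adjusted p under 0.05 and a log2 change of at least 0.2), as did 0 of all 6445 genes tested (0%), with 1 of the 12 and 575 of the 6445 (8.92%) at an unadjusted p under 0.05. That member was ENSDARG00000099077, with 883 and 888 bases in PGCs at 24 hpf, against 987 and 998 bases at 7 hpf (adjusted p = 0.35). The lengths of mixl1 stayed close, at 2262 and 2313 bases at 24 hpf, against 2311 and 2346 bases at 7 hpf. Those of zfpm2 spread widely within a stage, at 985 and 1673 bases at 24 hpf, against 1349 and 4033 bases at 7 hpf, which leaves its TPM uncertain.

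In the RefSeq gene table (GRCz12tu), 20 of the 23 member names were found, on 13 chromosomes, and no pair of them lay within 100 kb. Of the 20, dnd1 overlaps the uncharacterised gene LOC141377681, and adad1 overlaps bbs12 and il2. The library kit was a stranded one, but whether the counting used strand is not stated. The RefSeq assembly also differs from danRer10, to which the reads were aligned. Whether reads of such neighbours are among those of dnd1 and adad1, which had no fractional counts, was not tested.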

How the data were processed

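Libraries were made from sorted cells with the stranded SMARTer pico v2 kit. The authors trimmed reads with Trim Galore, aligned with STAR (danRer10) and used RSEM for gene quantification. The deposited expected counts are the gene-level estimates of RSEM. The authors' TPM values divide them by effective length, and the deposited effective lengths are in bases. This run was an additional lane, and whether earlier lanes were merged is not stated. Gene names came from the study's supplementary tables, then a reference table, in lower case. The members, lists and tests were chosen with earlier results of these data known. The text names every member with a name, at most 2 unnamed IDs per direction and the genes nearest the 4-fold limit. The markers and listed genes shown singly (elavl3, neurod1, tp63, tbxta, gata5, irf10, buc, rgs14a) were picked after their values were seen.

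Expected counts, rounded, were tested in edgeR 4.0.16 (filterByExpr, TMM, quasi-likelihood test, 4 group means, 8 libraries), effective lengths in limma 3.58.1. The standard errors (SE) beside edgeR changes are approximate. Each is the size of the log2 fold change divided by the square root of the F statistic of the test. Alternatives were RLE, DESeq2 1.42.0, other filters, a replicate block, limma on log2(TPM + 1) and log2(TPM + 0.1), stricter and looser limits, and runs with a library omitted. TMM-scaled TPM and scaling to 4 germ cell genes were added after seeing the data. On simulated counts for 19885 genes, 200 of them shifted by 3 on the log2 scale, edgeR found 47.5% of the shifted genes and 5% of its calls were false. The simulation gave all groups a shared mean for the other genes. Far more genes passed between the stages in the data, so these rates need not hold here. The study calls its replicates independent, but p-values measure only the spread of 2 libraries. Counting intervals (exact, 95%) pool the 2 libraries of a group and ignore the spread between them. Intervals and floors also ignore PCR copies. The 92 spike-in rows held 0 counts. Floors over a group are 3 counts in its 2 libraries together.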

Additional observations from a re-analysis of the deposited data

How the results depend on the processing

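Members past the threshold in PGCs between the stages numbered 8, and between 5 and 11 when each library was left out (5 without PGC 24 hpf replicate 1). Scaled to the 4 germ cell genes in the 4 PGC libraries, the number was 14 (13 higher, 1 lower), chosen after seeing the data, and 15899 of all genes tested passed, against 5266. In soma the number was 8, against 4 with a mean of at least 50 counts, 2 in the 4 soma libraries alone, 1 with limma on log2(TPM + 1), 2 on log2(TPM + 0.1) and 1 on TMM-scaled TPM, and between 3 and 7 when each library was left out. For all genes, 5266 passed in PGCs and 6588 in soma. With TMM-scaled TPM 3384 passed in PGCs and 3749 in soma, and with log2(TPM + 1) 4044 in soma. Leaving out each library gave between 2890 and 5785 in PGCs and between 4574 and 6872 in soma. With TPM without TMM scaling, the split in PGCs turned from 3886 higher and 1380 lower to 1656 higher and 2438 lower with log2(TPM + 1). With log2(TPM + 0.1) it was 2620 higher and 3142 lower. In soma the split was 4622 higher and 1966 lower, against 2233 and 1811 with log2(TPM + 1) and 3517 and 2292 with log2(TPM + 0.1). The median log2 fold change of all genes in PGCs was 0.36, against -0.39 with log2(TPM + 1) and -0.52 with log2(TPM + 0.1). The cause of these shifts was not tested.

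Of the 46 listed genes, 26 passed between the stages in PGCs (between 14 and 32 with a library left out) and 25 in soma, against 15 with log2(TPM + 1), 13 with TMM-scaled TPM and between 21 and 25 with a library left out. The contrast between PGCs and soma had chosen the members and the genes set aside, and some of the 46 are among them. Its counts are therefore a description only. Over all tested genes 3.61% passed as higher in PGCs at 7 hpf and 0.0302% at 24 hpf. Of the 46, 14 passed at 7 hpf, against 22 in DESeq2. At 24 hpf 5 passed, against 3 with RLE, 23 in DESeq2, 26 with no count filter, 3 when the mean had to reach 50 counts, 1 in the 4 libraries alone and between 2 and 5 with a library left out.

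The number of members was 25, against 104 at 2-fold, 14 at 8-fold, 2 at a 5 CPM minimum, 12 by TPM (5 of them members) and 21 by TMM-scaled CPM (18 of them members). It was between 31 and 51 with a library left out, which by construction loosens the rule. No length call arose under any alternative run.

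Some directions turned. Scaling to the 4 germ cell genes moved the median of all genes to 3.49, against 0.36, so a change of sign there says nothing particular to a member. On that scale log2 fold changes turned positive for asz1 (0.18), tdrd1 (0.13), prkcha (0.22), si:ch211-137a8.2 (0.61), zbtb47a (3.06), ccdc106b (1.42), chmp2b (2.74), rbm46 (1.92), ENSDARG00000086752 (1.35), adad1 (2.57), si:dkey-9k7.3 (2.90), si:ch211-286b5.2 (0.35) and ENSDARG00000099077 (1.74). The rab40b change was 0.36, against -0.56 with log2(TPM + 1), -0.85 with log2(TPM + 0.1) and -0.10 with TMM-scaled TPM. The zbtb47a change was -0.03, against 0.015 with RLE and 0.015 in DESeq2. With a library left out, changes lay between -0.24 and 0.47 for zfpm2, -0.22 and 0.73 for rab40b, -0.73 and 0.46 for zbtb47a, -0.27 and 0.70 for pld6, and -0.62 and 0.027 for si:dkey-9k7.3.

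Replicate numbers come from the titles, and whether they pair samples of the same embryos is not stated. Replicate 1 less replicate 2 differences correlated at 0.043 between PGCs of the 2 stages and at -0.009 between somas. Between PGCs and soma they correlated at 0.199 at 24 hpf and 0.077 at 7 hpf. Such correlations cannot settle whether samples were paired. With a replicate block 8 members passed in PGCs and 6 in soma, all as lower (rbm46 and adad1 were lost), and the zbtb47a change was 0.21. Of all 19885 genes tested with the block, 1311 passed as lower in PGCs and 1887 in soma.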
